A study of Homo sapiens with 12 samples.

Results

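Integrins are cell surface receptors made of 1 alpha and 1 beta subunit that hold cells to the extracellular matrix. The genes described here are ITGA1, ITGA2, ITGA3, ITGA5, ITGA6, ITGAV, ITGB1, ITGB4, ITGB5 and ITGB8, taken by their symbols from a matrix of read counts per gene. They are 10 of the 60623 genes listed, 6 encoding alpha and 4 encoding beta subunits, and all 10 were among the 17096 genes with enough reads to be tested. The libraries are labelled as NUGC-4, an established human diffuse gastric cancer cell line, wild type, grown in serum-containing medium. The study compared a focal adhesion kinase (FAK) inhibitor, a kinase inhibitor and their combination, each applied for 24 h. The combination group received 1 µM IN10018 with 1 µM crizotinib, the crizotinib group 1 µM crizotinib, the IN10018 group 1 µM IN10018, and the control group is labelled only as control. Each of the 4 groups had 3 libraries, numbered 1 to 3. IN10018 inhibits FAK, the kinase recruited to integrin adhesions, while crizotinib blocks several receptor kinases, among them MET, ALK and ROS1. All groups are 1 cell line, the vehicle of the control is not named, and no label says that the 3 libraries of a group come from separate cultures, so the p-values below measure only the spread between these libraries.

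Which alpha and beta subunits pair decides what an integrin binds. ITGB1 encodes the common beta subunit of many receptors. Paired with it, the ITGA1 and ITGA2 products bind collagens, the ITGA3 and ITGA6 products bind laminins, and the ITGA5 product binds fibronectin. The ITGA6 product also pairs with that of ITGB4 in the hemidesmosome, the junction that ties epithelial cells to the basement membrane, and the ITGAV product pairs with those of ITGB5 and ITGB8, among others, to bind vitronectin and latent TGF-beta. Beta subunit tails bind talin and kindlin, and FAK acts just inside the membrane at the adhesions so formed.

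Promoter sequence is shown for ITGA1, ITGAV, ITGB1 and ITGA5, 4 of the genes that were lower with the combination than in control. Each window runs from 250 bases before to 50 bases after the transcription start in RefSeq on GRCh38.p14, 5′ to 3′ on the strand of the gene. The table of promoters held 8 of the 10 genes and does not list ITGA3 or ITGB4. Capitals mark matches, on either strand, to the letters TGANTCA (AP-1) or GGAATG (TEAD), which do not overlap each other here. AP-1 and TEAD are transcription factors known to act downstream of growth factor and adhesion signals. The windows are chr5:52787666-52787965 for ITGA1 (plus strand), chr2:186589806-186590105 for ITGAV (plus strand, the first of 2 listed starts), chr10:32958181-32958480 for ITGB1 (minus strand, the first of 2) and chr12:54419217-54419516 for ITGA5 (minus strand).
ITGA1: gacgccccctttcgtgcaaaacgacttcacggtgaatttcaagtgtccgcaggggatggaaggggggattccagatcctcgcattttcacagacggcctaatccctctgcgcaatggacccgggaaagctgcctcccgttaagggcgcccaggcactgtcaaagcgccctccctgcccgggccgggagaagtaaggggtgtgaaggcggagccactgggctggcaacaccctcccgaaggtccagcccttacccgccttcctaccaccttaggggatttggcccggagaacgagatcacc
ITGAV: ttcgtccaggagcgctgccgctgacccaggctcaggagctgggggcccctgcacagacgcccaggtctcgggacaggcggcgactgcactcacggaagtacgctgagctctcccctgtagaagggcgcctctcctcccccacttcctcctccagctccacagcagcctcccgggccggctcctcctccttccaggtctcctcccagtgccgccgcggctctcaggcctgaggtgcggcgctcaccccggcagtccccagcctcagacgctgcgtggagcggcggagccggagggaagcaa
ITGB1: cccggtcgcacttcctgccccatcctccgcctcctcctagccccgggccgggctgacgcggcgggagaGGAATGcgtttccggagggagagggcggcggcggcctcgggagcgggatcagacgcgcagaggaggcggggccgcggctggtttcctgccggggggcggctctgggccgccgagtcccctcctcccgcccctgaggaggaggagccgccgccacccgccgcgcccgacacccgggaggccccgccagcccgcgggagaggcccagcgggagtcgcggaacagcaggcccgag
ITGA5: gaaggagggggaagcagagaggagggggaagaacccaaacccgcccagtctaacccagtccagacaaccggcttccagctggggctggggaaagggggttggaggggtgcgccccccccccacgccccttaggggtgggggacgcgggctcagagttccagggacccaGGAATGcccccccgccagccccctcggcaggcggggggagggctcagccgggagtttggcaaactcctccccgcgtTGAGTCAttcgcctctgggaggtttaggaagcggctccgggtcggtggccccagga
The ITGA5 window held an AP-1 match beginning at position -6 from the start and a TEAD match beginning at position -82. The ITGB1 window held 1 TEAD match, at position -182, and no AP-1 match. No match to either was in the ITGA1 and ITGAV windows printed, nor in any window of ITGA2, ITGA6, ITGB5 and ITGB8. Across 35116 promoters of the same table, 7.71% held the AP-1 letters and 14.0% the TEAD letters. These matches describe letters only. They are not measured binding.

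Library totals ran from 13691844 to 20489708 reads. On the first principal component, which held 67.2% of the variance, combination library 2 lay at 91.4 against 56.3 and 37.8 for its group, and crizotinib library 2 at 57.8 against -4.6 and 10.3. Mitochondrially encoded genes took 4.28 to 6.99% with the combination, 5.21 to 13.27% with crizotinib and 11.0 to 12.69% of the reads in the IN10018 and control libraries, and the libraries numbered 2 had the lowest share of both crizotinib-treated groups. Results are therefore also given without these 2 libraries. Across 16866 tested genes, the log2 fold change with the combination against control was higher for genes of higher GC content (Spearman rho 0.52, across genes, which are not independent replicates). The epithelial markers KRT8 and KRT18 had 1501 and 720.04 CPM (counts of reads scaled to a common library size) over all libraries, while EPCAM had 17.5, CDH1 had 3.75 and KRT19 was at 0 reads in all 12, which allows up to 0.0152 CPM. The levels of KRT8 and KRT18 fit the epithelial label, whereas the missing KRT19 reads and the low EPCAM and CDH1 levels go against it. The collagen gene COL3A1, at a mean of 5770 CPM, is also one not usually high in epithelial cells. Of the adipocyte markers, checked because a label names adipogenic differentiation, ADIPOQ was at 0 reads and FABP4 had 84.0 CPM. LEP and CIDEC, also on that list, had 2 and 5 reads over all libraries, and PLIN1 had 1.88 CPM. CD3E and PTPRC, markers of leukocytes, had 0 and 21 reads over all libraries.

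Counts below are CPM scaled by the trimmed mean of M values (TMM). The test was edgeR's quasi-likelihood F test, with Benjamini-Hochberg adjustment over all 17096 genes and a threshold of 0.05. In bulk RNA, fewer cells of a type and less RNA per cell cannot be told apart. All comparisons against control share the same 3 control libraries.

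Both collagen-binding alpha genes fell with the combination and with crizotinib. ITGA1 (chromosome 5, 52787896 to 52959210, plus strand, GRCh38) had 550.5, 411 and 674 CPM in combination libraries 1 to 3, 1059, 535 and 834 with crizotinib, 1410, 1481 and 1444 with IN10018, and 1587, 1436 and 1570 in control. Every combination and crizotinib library lay below every control library, and those of the 2 treated groups overlapped. Against control the change was -1.49 on the log2 scale with the combination (SE 0.21, adjusted p 0.0001), a 2.81-fold lower level. With crizotinib it was -0.92 (SE 0.21, adjusted p 0.0065), and with IN10018 the estimate was -0.08 (SE 0.20, adjusted p 0.90). PELO, a ribosome rescue factor, lies within ITGA1 and shares 475 exon bases with it on the same strand, so some reads of the pair may be divided by rules not stated.

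ITGA2 (chromosome 5, 52989326 to 53094779, plus strand), the neighbouring collagen receptor gene, was expressed at a lower level. It had 30.8, 28.7 and 41.4 CPM with the combination, 57.6, 32.7 and 46.9 with crizotinib, 66.6, 73.7 and 75.4 with IN10018, and 83.5, 75.4 and 79.8 in control. The crizotinib-treated groups again lay wholly below control, and the IN10018 libraries overlapped it. ITGA2 fell by 1.24 on the log2 scale with the combination (SE 0.18, adjusted p 0.00012) and by 0.80 with crizotinib (SE 0.18, adjusted p 0.0063).

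The laminin receptor genes moved in opposite directions. ITGA3 (chromosome 17, 50055968 to 50090481, plus strand), whose product pairs with that of ITGB1 to bind laminins, had 257, 314 and 242 CPM with the combination, 193, 281 and 216 with crizotinib, 178, 174 and 184 with IN10018, and 181, 178 and 177 in control. Library 2 was the highest of both crizotinib-treated groups, and neither group overlapped control. ITGA3 rose by 0.60 on the log2 scale with the combination (SE 0.13, adjusted p 0.0016), a 1.51-fold higher level, and by 0.36 with crizotinib (SE 0.13, adjusted p 0.045). The crizotinib call was lost in 16 of 25 other settings, among them without crizotinib library 2 (0.19, adjusted p 0.22), without any 1 of the control libraries and with the GC and length offset (0.22, adjusted p 0.056). The combination call held in all 25.

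ITGA6 (chromosome 2, 172427354 to 172506282, plus strand), the alpha partner of ITGB4 in hemidesmosomes, had 49.0, 47.2 and 64.1 CPM with the combination, 69.2, 55.2 and 70.4 with crizotinib, 86.8, 86.1 and 92.9 with IN10018, and 101, 96.6 and 97.1 in control. In ITGA6, as in ITGB1, each of the 3 treated groups lay wholly below control. ITGA6 fell by 0.88 on the log2 scale with the combination (SE 0.13, adjusted p 0.00012) and by 0.60 with crizotinib (SE 0.13, adjusted p 0.0054). With IN10018 the estimate was -0.15 (SE 0.13, adjusted p 0.72).

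ITGB4 (chromosome 17, 75721328 to 75757818, plus strand), the hemidesmosomal beta subunit with a long cytoplasmic tail, had 316, 375 and 336 CPM with the combination, 289, 358 and 304 with crizotinib, 279, 261 and 305 with IN10018, and 259, 254 and 252 in control. All 9 treated libraries lay above the 3 control libraries. ITGB4 rose by 0.42 on the log2 scale with the combination (SE 0.11, adjusted p 0.0034) and by 0.31 with crizotinib (SE 0.11, adjusted p 0.033). The estimate with IN10018 was 0.14 (SE 0.11, adjusted p 0.68). With an offset for GC content and gene length the combination value was -0.11 and no longer called. The crizotinib call was lost in 12 of 25 other settings, among them without crizotinib library 2 (0.22, adjusted p 0.14) and with the offset (0.02).

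Among the genes of the fibronectin and vitronectin receptors, ITGA5, ITGAV and ITGB8 fell with the combination and ITGB5 was not called. ITGA5 (chromosome 12, 54395261 to 54419460, minus strand), which encodes the classical fibronectin receptor subunit, had 15.2, 15.1 and 16.2 CPM with the combination, 24.4, 18.7 and 18.8 with crizotinib, 24.5, 22.9 and 22.1 with IN10018, and 24.8, 23.1 and 24.0 in control. Here the combination libraries lay below those of the other 3 groups, including every crizotinib library, while crizotinib library 1 stayed within the control range. ITGA5 fell by 0.63 on the log2 scale with the combination (SE 0.12, adjusted p 0.0006). With crizotinib the estimate was -0.21 (SE 0.12, adjusted p 0.16), which passed the threshold at -0.34 when crizotinib library 1 was left out.

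ITGAV (chromosome 2, 186590065 to 186680901, plus strand), the alpha subunit of the vitronectin receptors, had 52.9, 33.5 and 61.0 CPM with the combination, 88.4, 41.9 and 74.7 with crizotinib, 118, 121 and 116 with IN10018, and 128, 114 and 122 in control. Library 2 was the lowest of both crizotinib-treated groups. ITGAV fell by 1.30 on the log2 scale with the combination (SE 0.23, adjusted p 0.00039) and by 0.83 with crizotinib (SE 0.23, adjusted p 0.015), the crizotinib call being lost without control library 1 (-0.77, adjusted p 0.059). Without both libraries numbered 2 the changes were -1.09 with the combination and -0.57 with crizotinib, both called.

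Its beta partners differed. ITGB8 (chromosome 7, 20330702 to 20415754, plus strand), which with ITGAV activates latent TGF-beta, had 101, 70.0 and 133 CPM with the combination, 169, 80.6 and 148 with crizotinib, 186, 204 and 192 with IN10018, and 187, 175 and 182 in control. Both crizotinib-treated groups lay below control. ITGB8 fell by 0.84 on the log2 scale with the combination (SE 0.24, adjusted p 0.0069), and with the GC and length offset the value was -0.11 and not called (adjusted p 0.53). With crizotinib the estimate was -0.45 (SE 0.23, adjusted p 0.14), which became -0.65 and called without crizotinib library 1.

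ITGB5 (chromosome 3, 124761948 to 124901418, minus strand), the beta subunit of a vitronectin receptor, had 238, 259 and 233 CPM with the combination, 218, 255 and 243 with crizotinib, 198, 187 and 212 with IN10018, and 214, 203 and 218 in control. The combination and crizotinib libraries lay above control, but with the combination the estimate of 0.20 did not pass the threshold (SE 0.10, adjusted p 0.08). With crizotinib the estimate was 0.18 (adjusted p 0.15), which was called with library totals (0.30, adjusted p 0.026). The combination value was called with library totals in place of TMM (0.38), with a stricter filter (0.23) and without crizotinib library 1 (0.21).

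ITGB1 (chromosome 10, 32900319 to 33005792, minus strand), the shared beta subunit, had 635, 519.6 and 859 CPM with the combination, 1055, 748 and 993 with crizotinib, 1340, 1303 and 1335 with IN10018, and 1517, 1356 and 1487 in control. Every treated library lay below every control library, by a narrow margin with IN10018. ITGB1 fell by 1.11 on the log2 scale with the combination (SE 0.16, adjusted p 0.00013), a 2.17-fold lower level, and by 0.64 with crizotinib (SE 0.16, adjusted p 0.010). With IN10018 the estimate was -0.13 (SE 0.16, adjusted p 0.81).

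**Figure D1:**
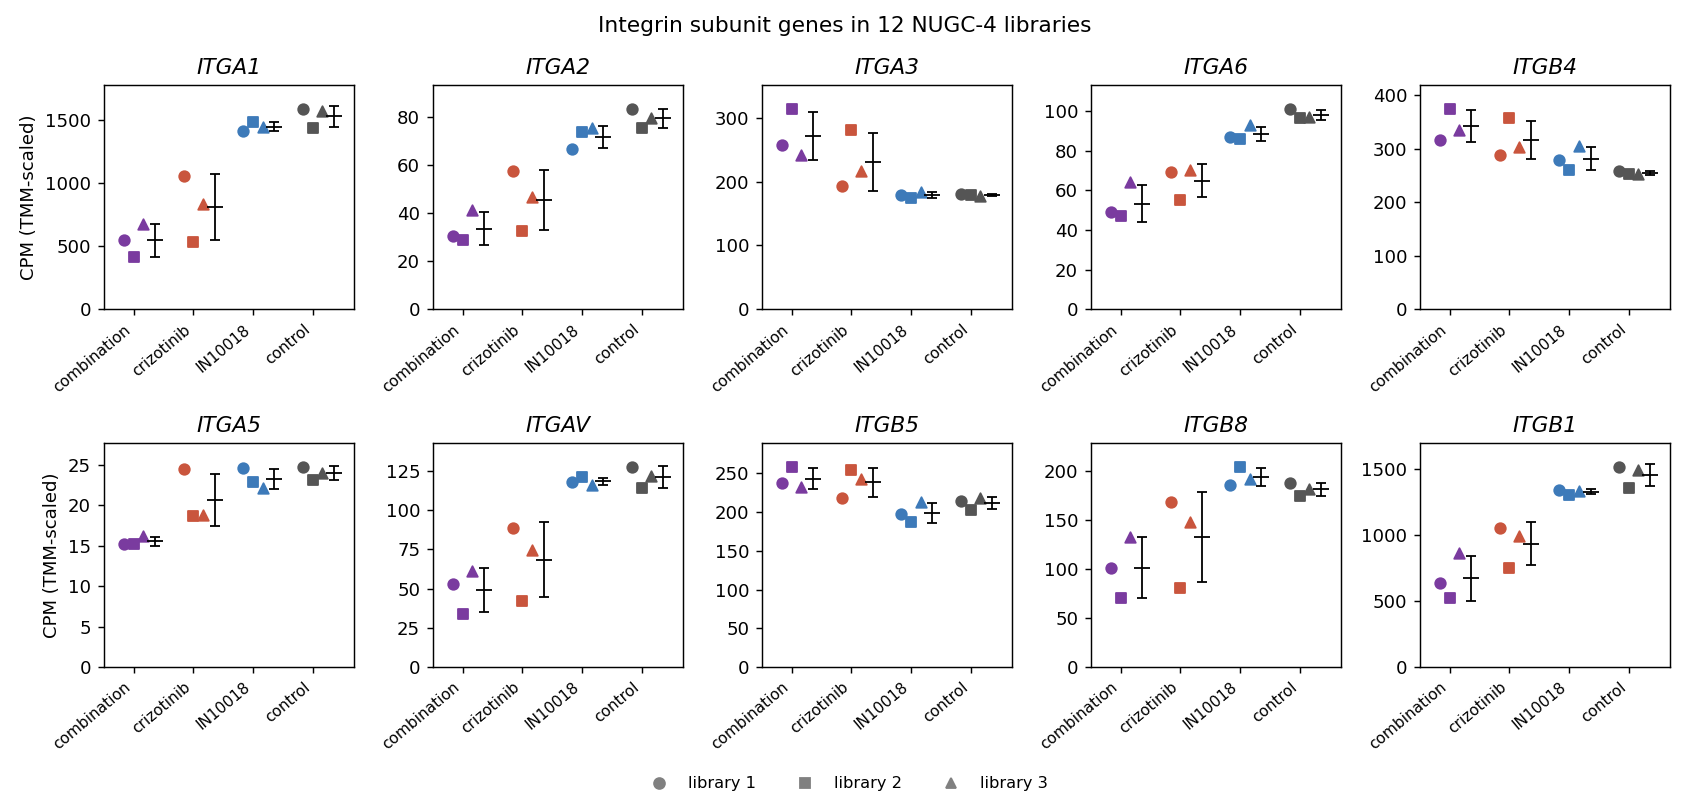
TMM-scaled CPM (y axis, linear, from 0) of the 10 integrin genes in the combination, crizotinib, IN10018 and control libraries (x axis), with a marker for each library number and the mean and SD of 3 libraries as a bar beside them. ITGA1 averaged 545 ± 132 CPM with the combination and 1531 ± 82.8 in control, whereas ITGA3 averaged 271 ± 37.8 and 179 ± 1.99.

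Counted over the 10 genes, 2 were higher and 7 lower with the combination than in control, against 33.7% and 29.1% of all tested genes called higher and lower (62.8% either way). In 3 genes the combination libraries lay wholly above control and in 7 wholly below, as did 37.9% and 33.2% of all tested genes. The median log2 fold change was -0.86 over the 10 genes and 0.10 over all tested genes. Without both libraries numbered 2 the count was again 2 higher and 7 lower. With crizotinib against control, 2 genes were higher and 5 lower, where 20.0% of all tested genes were called higher and 17.6% lower (37.6% either way). Crizotinib libraries lay wholly above control in 3 genes and wholly below in 6, against 26.3% and 25.1% of all tested genes. The medians were -0.53 over the 10 genes and 0.08 over all, and without both libraries numbered 2 the count was 1 higher, ITGB4, and 5 lower.

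Scaling moved these backgrounds. Library totals in place of TMM shifted the median of all tested genes by 0.18 with the combination and by 0.12 with crizotinib, in the higher direction. With totals, 7113 genes were higher and 3763 lower with the combination, against 5761 and 4968 with TMM. With crizotinib they were 4827 and 1948, against 3421 and 3014 with TMM. The sign of all 10 integrin estimates was the same with totals as with TMM in both comparisons.

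Set against IN10018, the combination differed in all 10 genes. In this comparison 7 were lower (ITGA1, ITGA2, ITGA5, ITGA6, ITGAV, ITGB1 and ITGB8) and 3 higher (ITGA3, ITGB4 and ITGB5), against 27.5% and 29.7% of all tested genes (57.2% either way). ITGA1 changed by -1.41 on the log2 scale (SE 0.21, adjusted p 0.00037) and ITGAV by -1.27 (SE 0.23, adjusted p 0.00072). ITGB5, which was not called against control, rose by 0.29 (SE 0.10, adjusted p 0.019), and ITGB4 rose by 0.28 (SE 0.11, adjusted p 0.035). Both calls were lost without combination library 2 (0.20 for ITGB5 and 0.17 for ITGB4). Over 25 other settings the ITGB5 value missed the threshold in 6 and the ITGB4 value in 12. With the GC and length offset the ITGB4 value turned to -0.30, called lower.

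IN10018 alone called none of the 10 genes by edgeR, DESeq2 or limma-voom, and none had an unadjusted p under 0.05. Of all tested genes, 0.503% were called either way, 0.345% higher and 0.158% lower, and 11.0% had an unadjusted p under 0.05. The estimates ran from -0.15 for ITGA6 to 0.14 for ITGB4, with SEs between 0.095 and 0.23 on the log2 scale. In 1 gene (ITGB4) the IN10018 libraries lay wholly above control and in 2 (ITGA6 and ITGB1) wholly below, where 14.0% and 18.9% of all tested genes did so. When only the 6 IN10018 and control libraries were fitted, ITGB4 was called higher, and with the replicate number as a block ITGB4 and ITGB8 were. Calls were more common there: of 15750 genes tested, 1314 were higher and 879 lower without the block, and 1648 and 1203 with it.

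**Figure D2:**
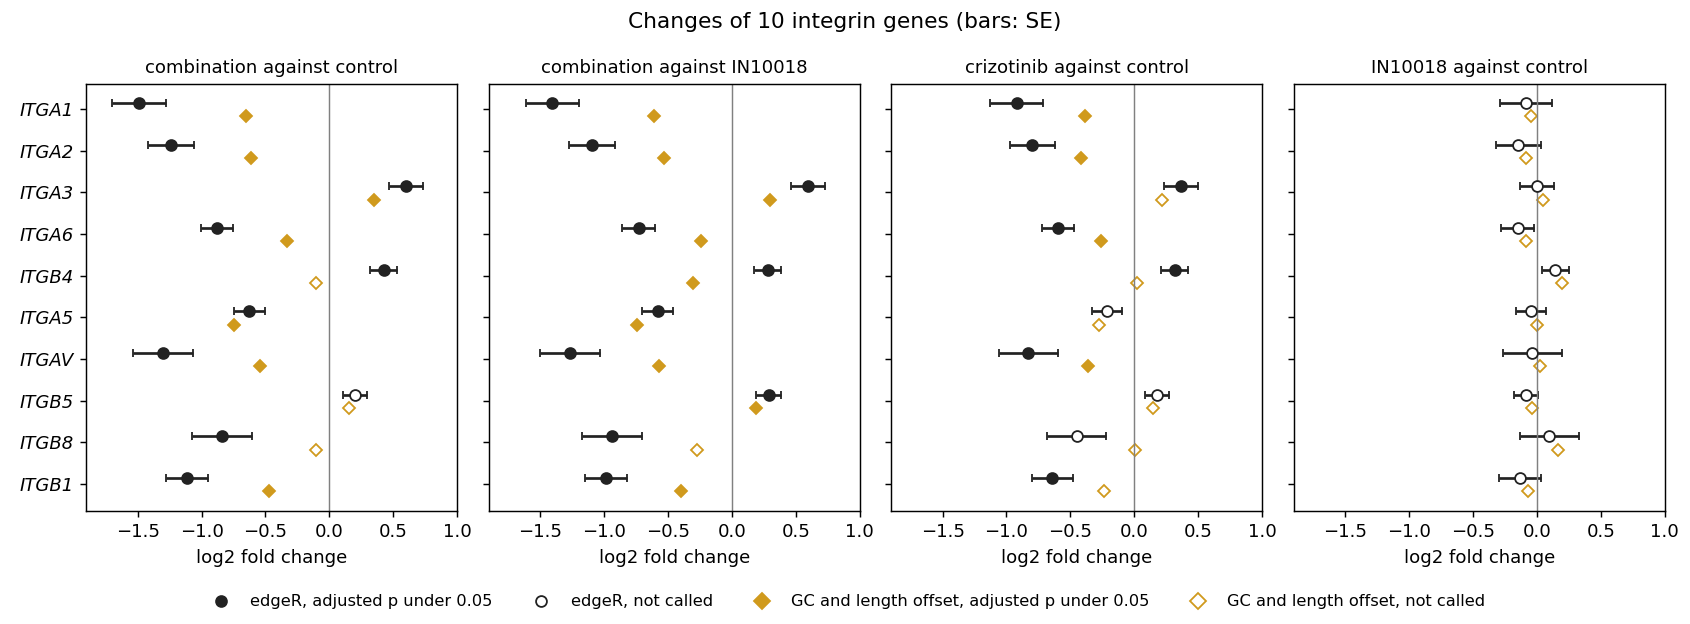
Log2 fold changes (x axis) of the 10 genes in the comparisons of the combination with control and with IN10018, and of crizotinib and IN10018 with control. Black circles are edgeR estimates with SE bars and orange diamonds the estimates with an offset for GC content and length, filled where the adjusted p was under 0.05. The IN10018 estimates lie between -0.15 and 0.14, while those of ITGA1 are -1.49 with the combination and -0.92 with crizotinib.

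With the combination against crizotinib, the estimates of ITGA1, ITGA2, ITGA5, ITGA6, ITGAV, ITGB1 and ITGB8 were below 0, none of them past the threshold in the fit of all 12 libraries. Of the 10 genes, 0 were called by edgeR, DESeq2 or limma-voom, and 5 had an unadjusted p under 0.05 (ITGA1, ITGA2, ITGA5, ITGA6 and ITGB1), where 0.0117% and 21.6% of all tested genes did so. The estimates were -0.57 for ITGA1 (SE 0.20, adjusted p 0.21), -0.47 for ITGB1 (SE 0.16, adjusted p 0.21), -0.47 for ITGAV (SE 0.23, adjusted p 0.24) and -0.41 for ITGA5 (SE 0.12, adjusted p 0.21). ITGA5 was the 1 gene whose combination libraries lay wholly below the crizotinib libraries, as did 4.77% of all tested genes, and in none of the 10 did they lie wholly above, as in 5.45%.

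The call depended on how the libraries numbered 2 were treated. The deviations of crizotinib and combination libraries from their group means correlated for each shared number (r 0.218, 0.624 and 0.275, across genes). However, crizotinib library 1 correlated more with combination library 3 (r 0.422). Deviations within a group also depend on each other, so these values do not establish a pairing by number. With the number as a block within these 6 libraries, 6 genes were called lower: ITGA1 (-0.53, adjusted p 0.0048), ITGA2 (-0.42, adjusted p 0.020), ITGA5 (-0.39, adjusted p 0.025), ITGAV (-0.45, adjusted p 0.0062), ITGB1 (-0.48, adjusted p 0.0073) and ITGB8 (-0.36, adjusted p 0.025). In that blocked fit 1987 of all genes were called higher and 1803 lower, so such calls were common. The block in the fit of all 12 libraries called 0 of the 10 genes. Without both libraries numbered 2, ITGA3 was called higher (0.29) and 7 genes lower, ITGA1 at -0.62 (adjusted p 0.00049). Of 17236 genes tested in that setting, 1877 were called higher and 2475 lower. Leaving out crizotinib library 2 alone gave the same numbers, 1 higher and 7 lower, and leaving out combination library 2 alone gave 0.

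The interaction, the effect of the combination beyond the sum of the effects of the single drugs on the log2 scale, passed the threshold in 0 of the 10 genes by edgeR, DESeq2 or limma-voom. Among all tested genes 0.0702% passed. ITGA5 had an unadjusted p of 0.049, with an estimate of -0.36 (SE 0.17, adjusted p 0.60), and 8.00% of all tested genes had an unadjusted p under 0.05. The estimates ran from -0.49 for ITGA1 to 0.23 for ITGA3. Without both libraries numbered 2, the interaction was called below 0 for ITGA1 (-0.54, adjusted p 0.021), ITGAV (-0.48, adjusted p 0.015) and ITGB8 (-0.53, adjusted p 0.013). In that setting 933 of 17236 genes were above 0 and 984 below.

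Levels can be set against each other only per length, here as CPM per kb of the merged exons of all annotated transcripts (GENCODE 29, GRCh38), which understates genes with long exons that are seldom used. With the combination the order was ITGB1 at 112 CPM per kb, ITGB4 at 50.6, ITGB5 at 37.7, ITGA1 at 29.4, ITGA3 at 27.6, ITGA6 at 8.18, ITGB8 at 6.69, ITGAV at 5.98, ITGA2 at 4.25 and ITGA5 at 2.05. In control it was ITGB1 at 242 CPM per kb, ITGA1 at 82.5, ITGB4 at 37.7, ITGB5 at 32.8, ITGA3 at 18.3, ITGA6 at 15.05, ITGAV at 14.8, ITGB8 at 11.96, ITGA2 at 10.1 and ITGA5 at 3.16. ITGB1 was first and ITGA5 last in all 4 groups. ITGA1 held rank 4 with the combination, rank 3 with crizotinib, and rank 2 with IN10018 and in control. With the combination the libraries of these neighbours in the order overlapped: ITGB5 and ITGA1, ITGA1 and ITGA3, ITGA6 and ITGB8, ITGB8 and ITGAV, and ITGAV and ITGA2. In control only ITGA6 and ITGAV did.

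The make-up of the alpha genes differed between the groups with and without crizotinib. Summed over the 6 alpha genes the level was 77.5 ± 7.43 CPM per kb with the combination, 93.8 ± 15.5 with crizotinib, 136 ± 2.44 with IN10018 and 144 ± 6.27 in control (SD, n = 3 each). The collagen receptor gene ITGA1 held 37.6 ± 5.79% of that sum with the combination, 45.6 ± 7.82% with crizotinib, 57.1 ± 0.67% with IN10018 and 57.4 ± 0.76% in control. The laminin receptor gene ITGA3 held 36.2 ± 8.20%, 26.1 ± 9.73%, 13.4 ± 0.44% and 12.7 ± 0.50% in the same 4 groups. In combination library 2, ITGA3 was the leading alpha gene with 45.01%, against 31.2% for ITGA1, and in the other 11 libraries ITGA1 led, although in crizotinib library 2 the shares were 37.1% for ITGA1 and 36.9% for ITGA3. The shares of ITGA6 stayed between 9.56 and 11.5% in all 12 libraries. These shares carry no correction for GC content, which was 37.8% for ITGA1 and 59.1% for ITGA3.

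**Figure D3:**
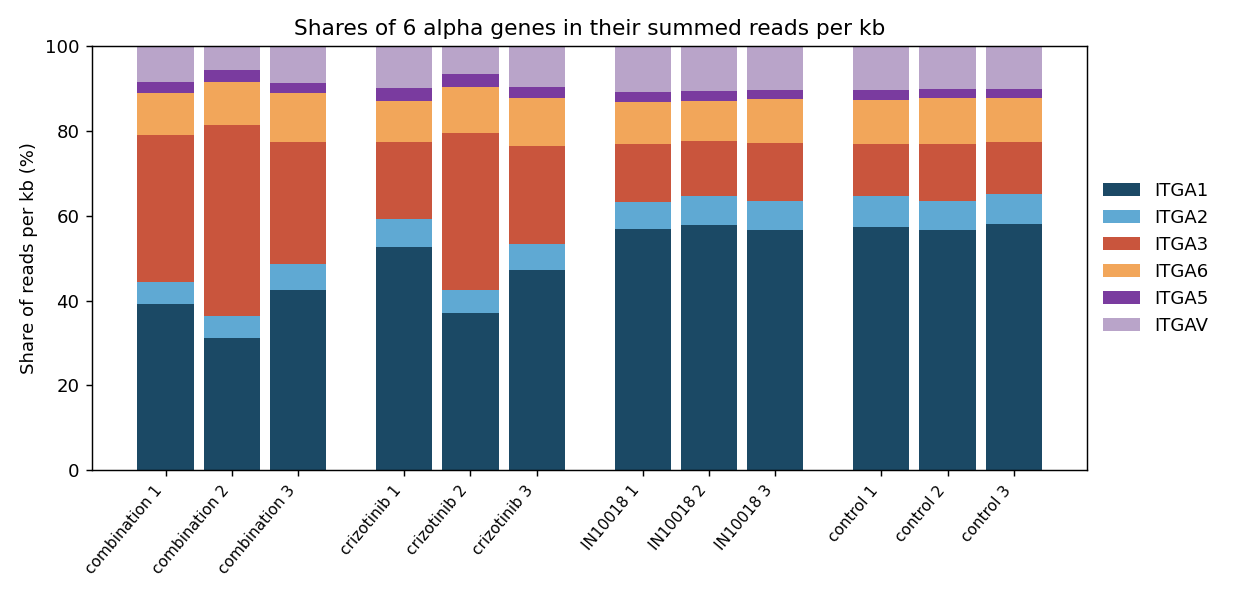
Share of each of the 6 alpha genes in their summed CPM per kb (y axis, percent) in every combination, crizotinib, IN10018 and control library (x axis). The ITGA3 share lies between 28.8 and 45.01% in the combination libraries and between 12.4 and 13.3% in the control libraries. Shares are not corrected for GC content.

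Within 1 library the ratio of an alpha gene to a beta gene does not depend on the scaling. For 7 known pairs, the log2 read ratio was compared between the 6 libraries with and the 6 without crizotinib by a two-sided exact permutation test, with labels exchanged only within libraries of the same IN10018 status. The smallest p this design allows is 0.005, and p-values were adjusted over 14 tests. In 6 pairs the crizotinib effect reached that smallest p (adjusted p 0.012). ITGAV lost ground to ITGB5 by 1.33 on the log2 scale, a difference of -1.60 in the presence of IN10018 and -1.07 in its absence. ITGA6 relative to ITGB4, the hemidesmosome pair, changed by -0.97, with -1.02 and -0.92 in the 2 strata. The ITGA3 to ITGB1 ratio was higher by 1.30, with 1.60 and 1.00.

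These 3 pairs join genes far apart in GC content, 39.0 and 54.6% for ITGAV and ITGB5, 43.2 and 62.9% for ITGA6 and ITGB4, and 59.1 and 40.9% for ITGA3 and ITGB1. Read ratios carry no correction for GC content or length. Taken instead as the difference of the log2 fold changes of both genes with the combination against control, the ITGAV to ITGB5 value was -0.69 with an offset for GC content and length and -1.50 without it. For ITGA6 to ITGB4 it was -0.22 with the offset and -1.30 without, and for ITGA3 to ITGB1 0.82 and 1.71. No test was made of these differences.

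The other pairs shifted less. The ITGA5 to ITGB1 ratio was higher by 0.43 with crizotinib, but the difference of the fold changes turned from above to below 0 with the offset, at -0.04 for crizotinib and -0.27 for the combination against control. The ITGA1 to ITGB1 ratio was lower by 0.37 and the ITGAV to ITGB8 ratio by 0.35, each at the smallest p. With the combination against control, the difference for ITGA1 and ITGB1 was -0.18 with the offset and -0.37 without, and that for ITGAV and ITGB8 was -0.44 and -0.46. For ITGAV and ITGB8 the log2 ratio was -0.94, -1.06 and -1.12 in the combination libraries, -0.93, -0.94 and -0.99 with crizotinib, -0.66, -0.76 and -0.72 with IN10018, and -0.55, -0.62 and -0.58 in control, so every crizotinib-treated library lay below every other library. The ITGA2 to ITGB1 ratio differed by -0.14 (exact permutation p 0.030, adjusted p 0.052).

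With IN10018, 1 pair passed the threshold. The ITGAV to ITGB8 ratio was lower by 0.11 (exact permutation p 0.020, adjusted p 0.040), with -0.09 in the presence of crizotinib and -0.13 in its absence. For ITGA6 to ITGB4 the value was -0.35 (exact permutation p 0.040, adjusted p 0.062), with all 3 IN10018 libraries below all 3 control libraries. With 1 library left out, the number of pairs past the threshold for IN10018 was 0 to 3, and the ITGAV to ITGB8 call was lost without control library 1 or 3, crizotinib library 1, or combination library 2 or 3. With the replicate number as a block, 3 pairs passed, ITGA3 to ITGB1 (0.43), ITGA6 to ITGB4 (-0.35) and ITGAV to ITGB8 (-0.11), each at an adjusted p of 0.044. Each was at the smallest p the block allows. The block also pairs control with IN10018 libraries, whose deviations from their group means correlated little by number (r 0.006, 0.118 and 0.113). For ITGA3 to ITGB1 the difference was 0.73 in the presence of crizotinib and 0.13 in its absence, with an exact permutation p of 0.105 without the block.

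**Figure D4:**
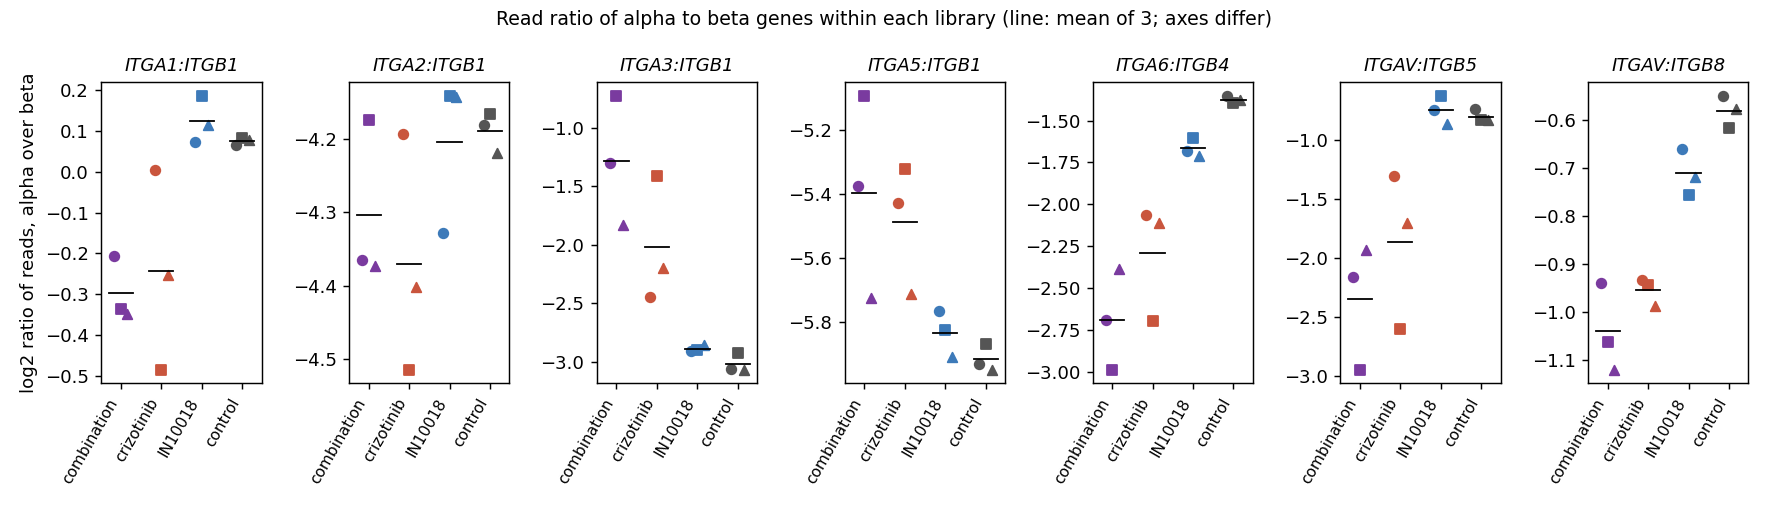
Log2 ratio of the reads of an alpha gene to those of a beta gene within each library (y axis, differing between panels) for 7 subunit pairs in the combination, crizotinib, IN10018 and control groups (x axis), with a line at the mean of 3 libraries. The ITGAV to ITGB5 ratio averages -2.35 with the combination, -1.87 with crizotinib, -0.75 with IN10018 and -0.80 in control.

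Members of low and high GC content differed in direction. The 6 genes with a GC content under 45%, ITGA1 (37.8%), ITGAV (39.0%), ITGB1 (40.9%), ITGB8 (41.1%), ITGA2 (42.1%) and ITGA6 (43.2%), all fell with the combination. Of the 4 with at least 54%, ITGB4 (62.9%) and ITGA3 (59.1%) rose, ITGB5 (54.6%) was not called, and ITGA5 (56.2%) fell. Of the 16866 tested genes with a GC value, 34.3% were under 45% GC. Over these 16866 genes the median log2 fold change with the combination was -0.44 for genes under 45% GC and 0.65 for those of at least 54%. With crizotinib the medians were -0.26 and 0.42, and with IN10018 -0.03 and -0.01.

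With an offset for GC content and gene length fitted over all genes, most of the integrin changes were smaller and 1 was larger. Against control, the combination values became -0.65 for ITGA1 (adjusted p 0.00012), -0.62 for ITGA2 (adjusted p 0.00021), -0.54 for ITGAV (adjusted p 0.0019), -0.47 for ITGB1 (adjusted p 0.00072) and -0.33 for ITGA6 (adjusted p 0.0023), all still called. ITGA3 remained higher at 0.35 (adjusted p 0.0024). The ITGA5 value was -0.74 (adjusted p 0.00017), the lowest of the 10 under this offset. ITGB8 and ITGB4, at -0.11 each, were no longer called. With crizotinib ITGA1 (-0.39), ITGA2 (-0.42), ITGA6 (-0.26) and ITGAV (-0.36) were still called lower, and ITGB1 was not (-0.24, adjusted p 0.066). Gene length, the other part of the offset, also ran with the change over all genes. Longer genes had lower log2 fold changes (Spearman rho -0.34 across genes, with the combination and with crizotinib against control). How much of each shift went with GC content and how much with length was not tested. The offset would also remove any change due to treatment that runs with GC content or length. Such a change and one not due to treatment cannot be told apart here.

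**Figure D5:**
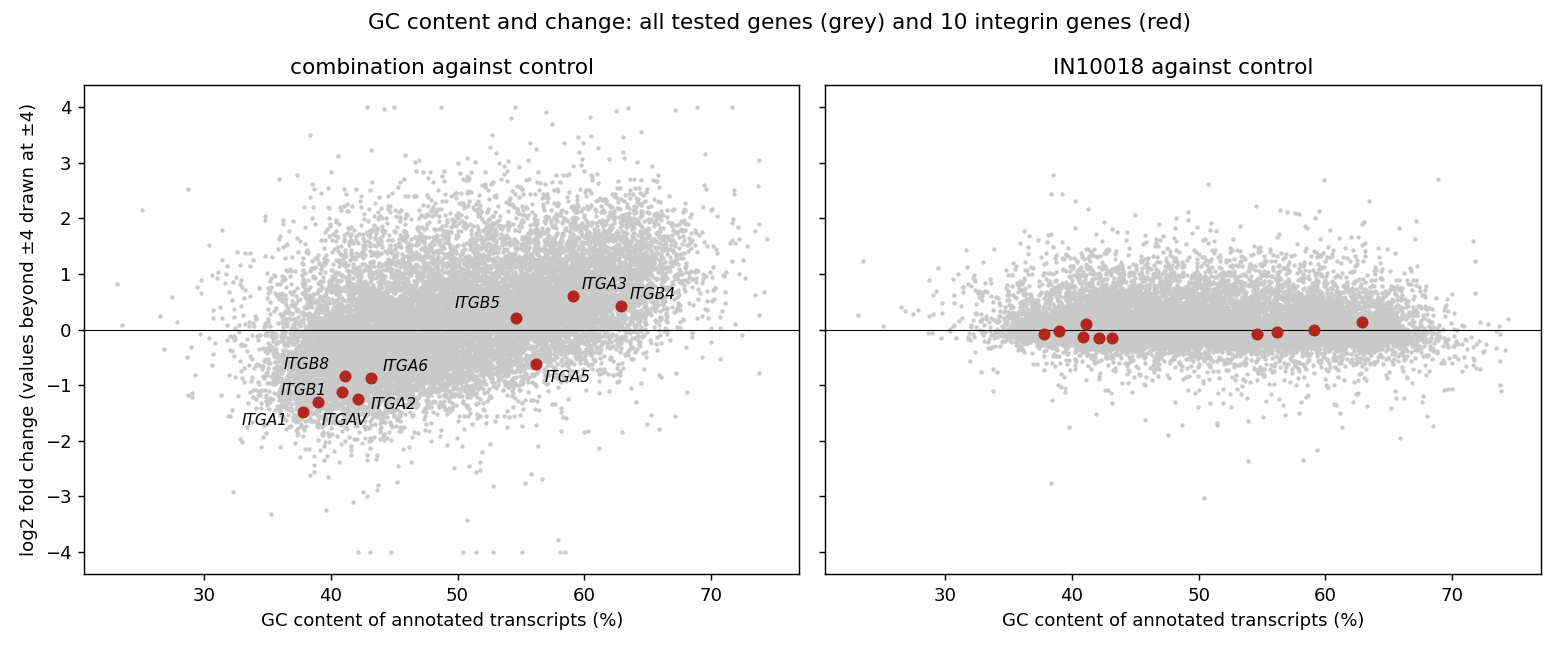
GC content of annotated transcripts (x axis, percent) against log2 fold change (y axis) for all tested genes with a GC value (grey) and the 10 integrin genes (red), for the combination and for IN10018 against control. With the combination the 6 genes under 45% GC lie between -1.49 and -0.84, and ITGA5, at 56.2% GC, lies at -0.63.

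Of 16 further integrin genes, 6 were tested and the other 10 had at most 71 reads over the 12 libraries, with ITGA8 and ITGB6 at 0. The tested ones were expressed at low levels. With the combination against control 3 were called, all higher: ITGA10, another collagen receptor gene, by 1.92 on the log2 scale (SE 0.30, adjusted p 0.00019), ITGA2B, the platelet fibrinogen receptor subunit, by 1.24 (SE 0.26, adjusted p 0.00095), and ITGAE, which binds E-cadherin, by 0.44 (SE 0.13, adjusted p 0.0096). ITGA10 averaged 3.32 ± 0.38 CPM with the combination and 0.89 ± 0.37 in control, far below ITGA1. With crizotinib 2 were higher, ITGA10 by 1.56 and ITGA2B by 0.99. The shares of all tested genes called higher were 33.7% with the combination and 20.0% with crizotinib. Leaving out both libraries numbered 2 gave the same counts in both comparisons.

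Among extracellular ligands of integrins, 23 of 30 listed genes were tested. With the combination 8 were higher and 13 lower (median -0.49, against 0.10 over all tested genes), and with crizotinib 6 and 8. The shares of all tested genes called higher and lower were 33.7% and 29.1% with the combination and 20.0% and 17.6% with crizotinib. Without both libraries numbered 2 the counts were 8 and 12 with the combination and 3 and 8 with crizotinib, and with the GC and length offset 3 and 9 with the combination and 3 and 7 with crizotinib. Here and for the lists below, the shares of all tested genes belong to the fit of all 12 libraries without the offset. They are no background for the counts in other settings. The matricellular protein gene CCN1 averaged 48.2 ± 5.75 CPM with the combination, 47.9 ± 6.28 with crizotinib, 97.0 ± 9.31 with IN10018 and 150.2 ± 7.90 in control. CCN1 fell by 1.64 with the combination (SE 0.13, adjusted p 3.8e-06), by 1.65 with crizotinib and by 0.63 with IN10018 (SE 0.12, adjusted p 0.039). It was the 1 gene of the list called with IN10018. THBS1, encoding thrombospondin, fell by 1.82 with the combination and the laminin chain gene LAMB1 by 0.92. Another laminin chain gene, LAMB2, rose by 1.29, to 488 ± 122 CPM with the combination, against 199.9 ± 9.58 in control. CCN2, a relative of CCN1, was at 0 CPM in all 3 combination libraries and averaged 0.85 ± 0.10 CPM in control.

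Proteins that bind integrin tails gave 6 higher and 19 lower of 33 tested genes with the combination (median -0.44), and 4 higher and 14 lower with crizotinib. Over all tested genes 33.7% were higher and 29.1% lower with the combination, and 20.0% and 17.6% with crizotinib. Among those that rose with the combination were CIB1, which binds the tail of the platelet integrin alpha subunit, by 1.36 (SE 0.24, adjusted p 0.00036), and the docking protein gene DOK1, by 1.09 (SE 0.22, adjusted p 0.00087). Those that fell with the combination included FERMT2, a kindlin that activates integrins, by 1.21 (SE 0.17, adjusted p 0.0001), the talin gene TLN2 by 0.89 (SE 0.12, adjusted p 0.00011), and PARVA, a parvin of the adhesion complex, by 0.84 (SE 0.10, adjusted p 6.9e-05). With the GC and length offset 7 genes of this list were higher and 13 lower with the combination. Without both libraries numbered 2 the counts were 6 and 19.

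Partners of the hemidesmosome pair were also divided. Of 6 tested genes 3 were higher and 2 lower with the combination, where 33.7% and 29.1% of all tested genes were. DST, encoding a linker of the hemidesmosome to keratin filaments, fell by 1.04 (SE 0.15, adjusted p 0.0001), and LAMA3, a chain of the ligand laminin, fell by 1.10 (SE 0.31, adjusted p 0.0072) at a low level of 0.86 ± 0.21 CPM with the combination and 1.84 ± 0.35 in control. PLEC, the most highly expressed gene of the list, rose by 0.73 (SE 0.16, adjusted p 0.0015). It averaged 3900.5 ± 737 CPM with the combination and 2350 ± 76.6 in control. The tetraspanin gene CD151 rose by 0.45 (SE 0.13, adjusted p 0.011) and the laminin chain gene LAMB3 by 0.62 (SE 0.21, adjusted p 0.018). With the GC and length offset 1 of the 6 genes was called, DST, which was lower.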

How the data were processed

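For 12 libraries the authors deposited raw read counts per gene, as whole numbers without any normalization. Trimmomatic, FastQC, HISAT2, featureCounts and DESeq2 are among the tools, and hg38 and GRCh38 the builds, in the submitters' processing notes. Their versions and the strand setting of the counting are not given in the sources used here. Per the labels' protocols, RNA was taken up in TRIzol and libraries were directional.

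All 12 libraries entered 1 fit in edgeR 4.0.16 (R 4.3.3) with TMM scaling, filterByExpr and a robust quasi-likelihood F test, Benjamini-Hochberg adjusted over 17096 genes, so the 4 groups share 1 estimate of spread (common biological coefficient of variation 0.139). SEs are the log2 fold change over the root of F. Subunit ratios had 1 read added to each count. DESeq2 1.42.0, limma-voom (limma 3.58.1) and the settings in the closing section were alternatives. The GC and length offset was fitted with mgcv 1.9.3 over the 98.65% of tested genes with an annotation, and it, like the block within 6 libraries, was chosen after seeing the data. The procedures were tested on simulated data.

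The 10 genes and the gene lists were chosen with earlier results of these data known. The text names all 10 genes, the further integrin genes that were called, and a choice of called list members, not always those with the smallest p. Positions, exon lengths and GC content come from GENCODE 29, promoters from RefSeq. Replicate numbers were taken to pair crizotinib with combination libraries, because the residuals correlated over 0.1 for each number (0.218, 0.624 and 0.275), although crizotinib library 1 correlated more, at 0.422, with combination library 3. For the other pairs of groups the correlations were -0.028 to 0.156 and not all over 0.1. Antisense genes overlap ITGA1, ITGA5, ITGA6, ITGAV, ITGB8 and, without shared exon bases, ITGA2 and ITGB5, and their reads carry more doubt. ITGB1 shares 42 exon bases with ITGB1-DT, a non-coding RNA gene on the other strand, and carries the same doubt.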

Additional observations from a re-analysis of the deposited data

How the results depend on the processing

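Settings tried were scaling by library totals or by DESeq2 size factors, a filter of 1 CPM in 3 libraries with 100 reads overall or none, the replicate block, leaving out each library, leaving out both libraries numbered 2 of crizotinib and combination, the leading axis within groups as a covariate, removal of mitochondrially encoded genes, a GC and length offset, only the 6 libraries compared, DESeq2 and limma-voom. The 7 lower calls with the combination against control held in every setting except the GC and length offset, which left 6, and the 7 against IN10018 likewise held except under that offset, where ITGB8 was not called (-0.27, adjusted p 0.12) and ITGB4 was called lower. The causes of the changes below were not tested. Each library held at least 13691844 reads, and whether depth or the 3 libraries a group limit the calls was not compared.

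Of the 10 genes, the 2 called higher with crizotinib against control became 0 with DESeq2 size factors, without mitochondrially encoded genes, with the GC and length offset, with only the 6 libraries (with or without the block) and with DESeq2, 1 without a filter, without both libraries numbered 2 and with limma-voom, 3 with library totals, and 0 to 3 with 1 library left out. The 2 called higher with the combination against control became 1 with the GC and length offset. In that comparison ITGB5 was also called higher with library totals, with the stricter filter and without crizotinib library 1. The 3 called higher with the combination against IN10018 became 1 without a filter and 1 with the 6 libraries and block, and ran over 1 to 3 with 1 library left out. For IN10018 against control the 0 called higher became 1 with only the 6 libraries and 2 with the block added. For the combination against crizotinib, the 0 called lower became 4 without a filter, 7 without both libraries numbered 2, 7 with the axis covariate and 6 with the 6 libraries and block, with 0 to 7 when 1 library was left out. The 0 called higher became 1 without both libraries numbered 2 and 1 with the axis covariate, with 0 to 1 when 1 library was left out. For the interaction, 3 were lower without both libraries numbered 2, and 1 was higher and 5 were lower with the axis covariate. That axis was computed from the deviations of these same libraries from their group means. As a covariate it removes spread within groups by construction, so its added calls give no independent support.

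With the replicate block the IN10018 effect on subunit ratios passed the threshold in 3 pairs (ITGA3 to ITGB1, ITGA6 to ITGB4 and ITGAV to ITGB8) in place of 1 (0 to 3 with 1 library left out), and the crizotinib effect in 7 in place of 6, ITGA2 to ITGB1 being added at -0.14 (adjusted p 0.044). All these blocked calls were at the smallest p the block allows. The block in the fit of all 12 libraries changed no call of the 10 genes. Over all genes it gave 90 higher and 4 lower for the combination against crizotinib. Counts over all genes ran widely between settings, from 1 to 1648 higher and 6 to 1203 lower for IN10018 against control, 1354 to 5084 and 1372 to 4634 for crizotinib against control, 4473 to 7113 and 3763 to 5688 for the combination against control, 0 to 2834 and 2 to 3286 for the combination against crizotinib, and 1 to 1577 and 1 to 1739 for the interaction.

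Changes of sign were found for estimates near 0. For IN10018 against control, ITGA3 was -0.036 with DESeq2 size factors, -0.0076 without a filter, -0.025 without mitochondrially encoded genes and -0.047 with DESeq2 (-0.036 to 0.036 with 1 library left out). ITGA5 was 0.019 with library totals and 0.0012 with the offset (-0.092 to 0.017). ITGAV was 0.032 with library totals, 0.0000 with the stricter filter, 0.025 with the offset, and 0.0021 and 0.0025 with the 6 libraries without and with the block (-0.082 to 0.032). With the GC and length offset, ITGB8 was 0.0053 for crizotinib against control, ITGB4 was -0.11 for the combination against control, -0.30 against IN10018 and -0.13 against crizotinib, and the ITGA6 interaction was 0.018. The ITGB4 interaction was 0.0031 without mitochondrially encoded genes and 0.0011 with DESeq2 (-0.14 to 0.061). With 1 library left out, ITGB5 for the combination against crizotinib ran over -0.043 to 0.072, and the IN10018 effect over -0.063 to 0.060 for ITGA1 to ITGB1 and -0.011 to 0.069 for ITGA2 to ITGB1.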

Other observations

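Genes of latent TGF-beta, which integrins with the ITGAV subunit can activate, were called in both directions. With the combination against control 3 of 6 tested genes were higher and 1 lower, where 33.7% and 29.1% of all tested genes were. LTBP3, a latent TGF-beta binding protein gene, averaged 119.5 ± 24.8 CPM with the combination, 86.1 ± 19.6 with crizotinib, 52.7 ± 1.92 with IN10018 and 49.0 ± 1.70 in control. LTBP3 rose by 1.29 on the log2 scale with the combination (SE 0.16, edgeR adjusted p 6.9e-05). LTBP4 rose by 0.72, TGFB1 rose by 0.41 and LTBP1 fell by 0.67 in the same comparison. With the GC and length offset the counts for this list were 2 higher and 3 lower, and without both libraries numbered 2 they were 3 and 1.

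Membrane proteins known to associate with integrins were more often higher than lower with the combination, 8 and 4 of 16 tested genes, and 6 and 1 with crizotinib. Over all tested genes 33.7% and 29.1% were higher and lower with the combination, and 20.0% and 17.6% with crizotinib. BSG, a partner of ITGB1 products also called basigin, averaged 1971 ± 409.8 CPM with the combination and 1142 ± 60.03 in control (log2 fold change 0.79, SE 0.14, adjusted p 0.00034). The urokinase receptor gene PLAUR rose by 0.67 and the tetraspanin genes CD63 and TSPAN4 rose by 0.88 and 0.87. CD47, a thrombospondin receptor gene, fell by 0.58. With the GC and length offset the counts were 8 higher and 2 lower with the combination and 1 and 1 with crizotinib. The shares of all tested genes given above are from the fit without the offset.

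COL3A1, a fibrillar collagen gene, averaged 5770 CPM over all libraries and the fibrillin gene FBN1 1939 CPM, the highest of the tested integrin ligands. Over the other marker lists, the combination against control called 1 of 4 tested epithelial markers higher (KRT18) and 1 lower (CDH1), both tested adipocyte markers (FABP4 and PLIN1) higher, 1 of 4 fibroblast markers higher (COL1A1, 2.82 ± 0.81 CPM with the combination and 1.09 ± 0.41 in control), 1 of 2 tested endothelial markers higher (PECAM1) and 1 lower (CDH5), and did not call the leukocyte marker tested, ITGB2. PECAM1, an adhesion molecule gene of endothelial cells and platelets, averaged 27.1 ± 4.22 CPM with the combination, 16.4 ± 3.18 with crizotinib, 9.23 ± 0.65 with IN10018 and 6.51 ± 0.16 in control, while VWF had 2 reads over all libraries. PLIN1 averaged 3.09 ± 0.37 CPM with the combination and 1.21 ± 0.38 in control. The adipocyte markers ADIPOQ, LEP and CIDEC, with 0, 2 and 5 reads over all libraries, were too low to test. The shares of all tested genes called higher and lower with the combination were 33.7% and 29.1%. The part of these marker genes in the integrin results was not tested.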
